A study of Mus musculus with 26 samples.

Results

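The genes described here are those of wild-type (WT) mouse embryonic stem cells (ESCs) that have both a promoter contact profile and an expression level. They were chosen by name: a gene had to be named on a baited fragment with at least 1 contact on the same chromosome in the WT ESC contact list, and to have a WT ESC value in the RNA-seq table. This gave 13778 genes, 88.1% of the 15646 with a WT ESC expression value. A further 1535 genes with an expression value were named only on baits without a WT ESC contact on their chromosome or only in the other lists of the series, and 333 were in no list.

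The series compares WT ESCs, Nanog-/- ESCs and epiblast stem cells by promoter capture Hi-C and RNA-seq, and adds ChIP-seq in the last of these. The cells used here are E14Tg2a ESCs, genotype wild type, grown on gelatin in medium with serum and LIF (1000 U/ml). The labels give the strain as C57BL/6, while the growth protocol gives E14Tg2a as 129P2/OlaHsd. Contacts come from 5 sequencing lanes, which by the study's methods belong to 2 biological replicates and which the authors combined into 1 list, and expression from 3 RNA-seq samples, reduced by the authors to 1 median per gene. No value below therefore has a replicate error. All genes come from 1 cell line in 1 culture condition.

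Promoters contact distal DNA by looping of the chromatin fibre, and some of these contacts bring enhancers to the genes they activate. Silent genes also make contacts: in ESCs, Polycomb complexes gather repressed developmental genes such as the Hox clusters, and inactive chromatin as a whole folds with other inactive chromatin. Promoter capture Hi-C cuts cross-linked chromatin with HindIII, ligates neighbouring ends and pulls down, with RNA baits, the ligation products that contain a promoter fragment.

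A contact is a cis pair where both fragments lie on the same chromosome. The WT ESC list holds 99706 different cis pairs, all with a CHiCAGO score (evidence, from CHiCAGO's background model, that a pair is seen more often than its spacing predicts) of 5 or more. Their median distance, between fragment midpoints, is 139 kb (quartiles 52.8 and 255 kb), and 1293 of them (1.30%) are longer than 800 kb. Reads per pair, taken here as values that the authors normalised and combined over replicates although the list does not state it, have a median of 13 and run from 3 to 572. Both fragments are baited in 23195 cis pairs, 23.3% of them. Expression is given in RPKM, reads scaled to transcript length and library size, so levels of different genes can be set side by side. Intervals in brackets after shares are Wilson 95% intervals and cover counting error only, and relations across genes are descriptions, since genes share neighbourhoods and capture and are not independent replicates.

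Pluripotency genes are highly expressed in these cells. Of 30 listed pluripotency genes, 25 were joined and all 25 lie at 1 RPKM or more, with a median of 167 RPKM, against 62.8% of all joined genes at that level and a median of 4.07 RPKM. Zfp42, Prdm14, Gdf3, Rif1 and Stat3 were not analysed here. Markers of other lineages are lower: the median is 4.296 RPKM over 12 primed epiblast genes, 1.14 over 10 primitive endoderm genes, 6.55 over 9 trophectoderm genes, 0.205 over 7 neuroectoderm genes, 0.468 over 8 mesoderm genes and 5.73 over 7 fibroblast genes. The most abundant of each are Dnmt3b (210 RPKM), Sparc (81.7), Krt8 (53.8), Tubb3 (77.1), T (3.37) and Thy1 (20.5). The list of genes for cells that resemble the 2-cell embryo was not analysed here.

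The number of cis pairs per gene was nearly unrelated to expression. A joined gene has a median of 4 cis pairs (quartiles 2 and 9), 2469 genes (17.9%) have 1, and 682 (4.95%) have 25 or more and are termed hubs here. By expression class, the median number is 4 for the 3076 genes under 0.1 RPKM, 5 for the 2055 at 0.1 to 1, 5 for the 3359 at 1 to 10, 4 for the 3502 at 10 to 50 and 4 for the 1786 at 50 and over. Silent and highly transcribed promoters thus have the same median number here, but at a score of at least 7 it is 2 for silent and 3 for highly transcribed genes, and for pairs listed from the gene's own end 3 and 4. Spearman's rho between number and RPKM is 0.0102 across 13778 genes. The sign of so small a value depended on the choices made: it was -0.0136 for pairs with a score of at least 7, -0.0170 among genes at 1 RPKM or more (8647 genes) against 0.0699 among those under 1 RPKM (5131 genes), and -0.0184 for partners that are not baited.

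The classes differ at the upper end of the distribution. Hubs make up 5.95% of the genes under 0.1 RPKM (183 genes) and 6.03% of those at 0.1 to 1 RPKM. At 50 RPKM and over they make up 3.25% (58 genes). Of the 183 silent hubs, 28 lie in 1 stretch of chromosome 11 and 14 in 1 of chromosome 15, both with keratin genes. Read in the other direction, the median RPKM is 3.97 for genes with 1 to 2 cis pairs, 4.93 with 3 to 5, 4.76 with 6 to 10, 3.64 with 11 to 24 and 1.74 with 25 and over. The share of genes at 1 RPKM or more is 61.2% (59.8% to 62.6%) with 1 to 2 pairs, reaches 65.1% (63.3% to 66.8%) with 6 to 10 and is 55.0% (51.2% to 58.7%) among hubs. Expression is therefore highest at a middle number of contacts and lowest among hubs. On the log2(RPKM + 0.1) scale the mean is 1.51 with 1 to 2 pairs and 0.94 among hubs, a difference of -0.57. At a score of at least 7 this difference is -1.04, and among genes at 1 RPKM or more -0.41. The 1535 genes without a cis pair in WT ESCs that are named in a list have a median of 3.40 RPKM, and 60.3% (57.9% to 62.7%) lie at 1 RPKM or more, close to the genes with 1 to 2 pairs.

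What followed expression was how far the contacts reach. The median distance per gene falls from 169 kb under 0.1 RPKM through 149, 130 and 117 kb to 109 kb at 50 RPKM and over, with rho -0.156 across the 13778 genes. The share of pairs over 800 kb is 2.17% (1.98% to 2.36%) in the lowest class and 1.26% (1.08% to 1.47%) in the highest, with the smallest value, 0.832% (0.726% to 0.954%), at 10 to 50 RPKM. At a score of at least 7 the lowest and highest classes have medians of 155 and 84.9 kb, and for pairs listed from the gene's own end 177 and 109.8 kb. Silent genes have 9.65% of their pairs within 20 kb, and the most transcribed genes 14.7%. Between 200 and 400 kb the order is the opposite, 28.6% against 20.2%. Among genes at 1 RPKM or more alone, rho is -0.0797 (8647 genes); among those under 1 RPKM it is -0.0472 (5131 genes).

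Gene density and the length of the bait fragment go with distance more closely than expression does. Bait length has a rho of -0.179 with the median distance and of 0.0669 with RPKM, and in the shortest tercile of baits the rho of distance with RPKM is -0.121, against -0.167 and -0.157 in the middle and longest. Over all joined genes, the number of baited fragments within 500 kb has a rho of -0.298 with the median distance and of 0.366 with the number of cis pairs, and of 0.0454 with RPKM. Genes with the fewest neighbouring baits (4979 genes) have a median of 3 pairs at 200.1 kb, and those with the most (4299 genes) have 7 pairs at 98.5 kb. Within these groups distance still falls with expression: rho is -0.154 for genes with the fewest neighbours, -0.122 for the middle group and -0.170 for those with the most. The median number of baits within 500 kb is 15, 14, 16, 15 and 16 from the lowest to the highest expression class, so the classes differ little in this respect.

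**Figure D1:**
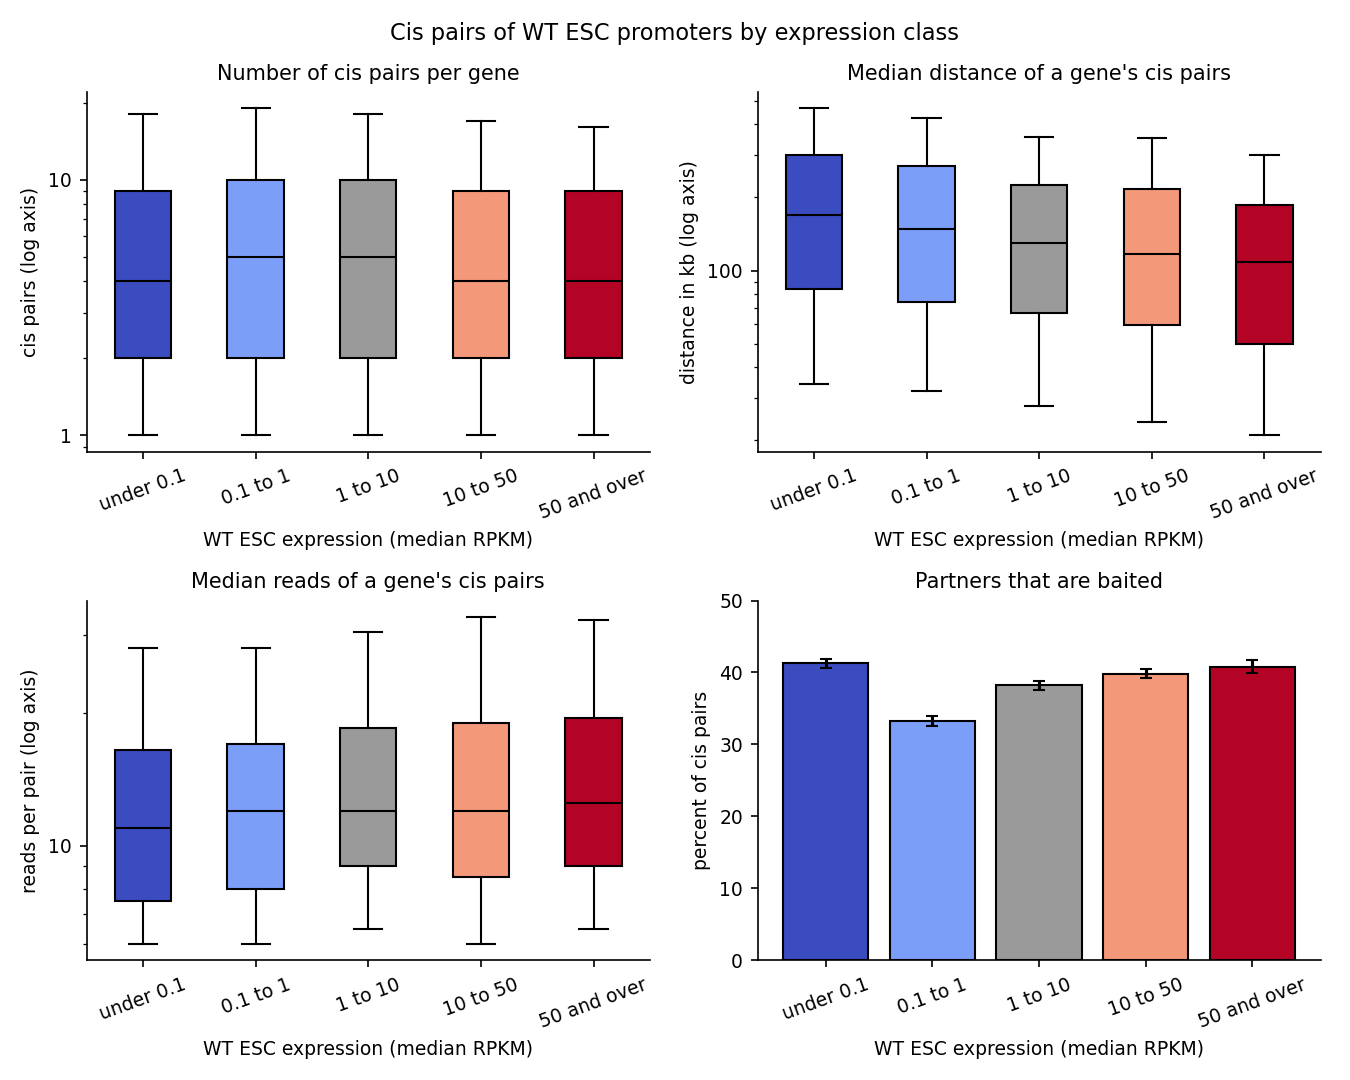
Number of cis pairs, median distance in kb and median reads per gene (boxes: quartiles with the median, whiskers: percentiles 10 and 90, log axes) and the pooled percent of baited partners (bars with Wilson 95% intervals) in 5 classes of WT ESC RPKM. Distance falls from 169 to 109 kb from the lowest to the highest class, while the median number stays at 4 or 5.

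Reads per pair rose slightly with expression over all distances and fell with it at equal distance. The median of a gene's median reads is 11 in the lowest class and 12.5 in the highest, with rho 0.0856. Among genes at 1 RPKM or more rho is 0.0190, so the rise is nearly absent among expressed genes. Reads go with distance far more than with expression: rho between the median reads and the median distance of a gene is -0.777. Within each distance bin the order turns around. Pairs under 20 kb have a median of 65 reads for silent genes and 57 for genes at 50 RPKM and over, pairs of 50 to 100 kb have 18 and 15, and pairs of 200 to 400 kb have 9 and 8. For pairs of 50 to 200 kb alone, rho across 9521 genes is -0.0639. Expressed genes thus have slightly higher reads over all distances and also shorter pairs. At the same distance, the listed pairs of silent genes carry slightly more reads than those of the highest class. These are only pairs that passed the score limit, and whether distance accounts for the rise was not tested.

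**Figure D2:**
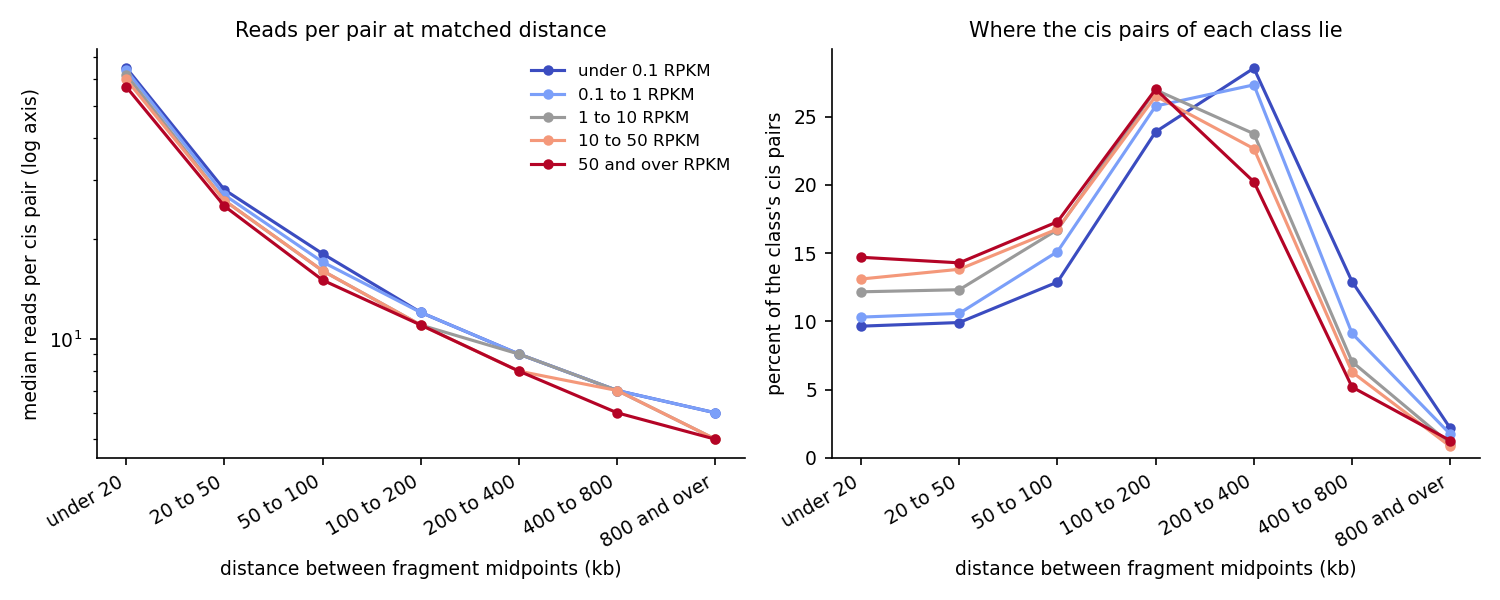
Left: median reads per cis pair (log axis) by distance between fragment midpoints in kb, 1 line per class of WT ESC RPKM. Right: percent of each class's cis pairs in each distance bin. Silent genes have the most reads in the bins up to 100 kb and the largest share of pairs from 200 to 400 kb, 28.6%.

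The type of partner did not change steadily with expression. A baited partner, that is another promoter fragment, takes 41.3% (40.6% to 41.9%) of the pairs of genes under 0.1 RPKM, 33.2% (32.5% to 33.9%) at 0.1 to 1, 38.2% (37.6% to 38.8%) at 1 to 10, 39.8% (39.2% to 40.4%) at 10 to 50 and 40.8% (39.9% to 41.7%) at 50 and over. The level and order of these shares depend on the pairs used. For genes under 0.1, at 0.1 to 1, and at 50 RPKM and over they are 49.1%, 40.3% and 47.5% at a score of at least 7, and 30.6%, 24.6% and 32.6% for pairs listed from the gene's own end, where silent genes fall below the highest class. The low value belongs to weakly expressed genes, and the high value of the silent class is carried in part by clustered sensory receptor genes. The 610 silent olfactory, vomeronasal and taste receptor genes have 64.5% (62.8% to 66.2%) baited partners, and the other 2466 silent genes 37.7% (37.0% to 38.3%). Spearman's rho between a gene's baited percent and RPKM is 0.0188, and 0.0778 without these receptors. With pairs of score 7 or more it is -0.00971. Larger values of opposite sign lie within groups of genes: -0.155 among genes under 1 RPKM and 0.0343 among those at 1 RPKM or more, and -0.132 in the lowest and 0.129 in the highest tercile of bait CpG.

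A promoter's partner promoter tends to have a like expression level. In 17003 cis pairs both baited fragments have an RPKM value, and rho between the ends is 0.413. The partner lies at 1 RPKM or more for 28.1% (27.1% to 29.1%) of the partners of silent fragments, 61.7% at 0.1 to 1 RPKM, 72.1% at 1 to 10, 76.4% at 10 to 50 and 79.98% (78.8% to 81.1%) at 50 and over, against 62.7% of all 13883 baited fragments with a value. Of the partners of silent fragments, 59.5% are silent too, against 22.4% of all fragments.

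Neighbouring promoters are alike whether or not their pair is listed, so the listed pairs were set beside promoter pairs at the same distance that are not listed. Under 20 kb, rho between the ends is 0.493 for 1477 listed and 0.429 for 2320 unlisted pairs. At 100 to 200 kb it is 0.361 and 0.219, and at 400 to 800 kb 0.467 and 0.0963 (1424 listed, 71942 unlisted). Likeness thus falls at each step of distance among unlisted promoters, while among listed ones it is lowest at 100 to 200 kb and higher again beyond. Far promoter pairs are listed at the highest rate where both ends are silent, although expressed pairs are more numerous among those listed (496 against 310 at 400 to 800 kb). At 400 to 800 kb, 5.59% (5.02% to 6.23%) of promoter pairs with both ends under 0.1 RPKM are listed, against 1.58% (1.45% to 1.72%) with both ends at 1 RPKM or more and 1.39% (1.22% to 1.57%) of mixed pairs. At 200 to 400 kb the shares are 16.1%, 8.65% and 7.40%. Under 20 kb, silent and expressed pairs are listed about as often, 39.7% and 40.6%, and mixed pairs less, 33.0%, with overlapping intervals for the last and the silent pairs. Pairs inside clusters of receptor, keratin, defensin, protocadherin or Hox genes were then left out, a choice made after these values were seen. This left 109 of the 310 listed silent pairs at 400 to 800 kb, and 3.62% (3.01% to 4.35%) of the remaining silent pairs are listed. At 200 to 400 kb it left 253 of 636, and 13.4% (11.9% to 15.0%) are listed. The values of rho between the ends include pairs inside these clusters.

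**Figure D3:**
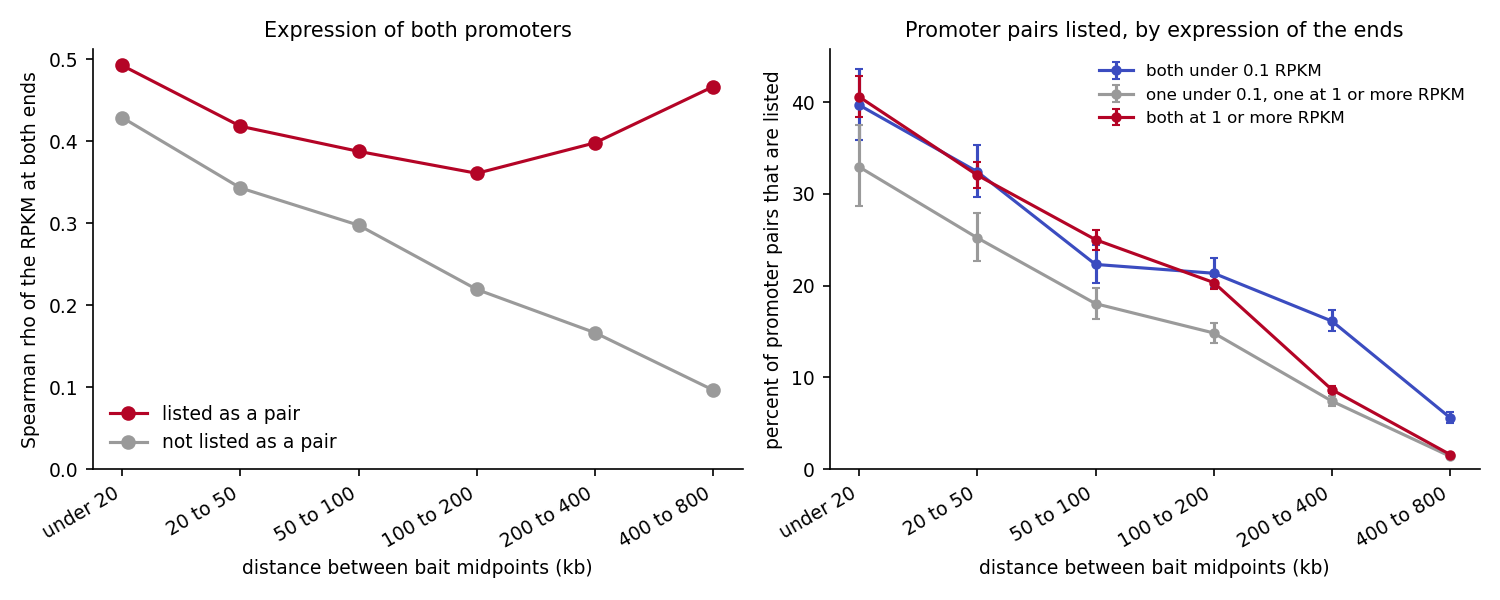
Left: Spearman's rho of the RPKM at both ends of promoter pairs that are listed or not listed, by distance between bait midpoints in kb. Right: percent of promoter pairs that are listed, with Wilson 95% intervals, where both ends are under 0.1 RPKM, both at 1 RPKM or more, or 1 of each. At 400 to 800 kb rho is 0.467 for listed and 0.0963 for unlisted pairs, with pairs inside gene clusters included.

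The CpG content of the bait went with expression and not with the number of pairs, while GC content went with both. CpG observed over expected, the frequency of C followed by G relative to the base content, was taken over the whole bait fragment. Its rho is 0.509 with RPKM and -0.00251 with the number of cis pairs (13778 genes). GC content has a rho of 0.246 with RPKM and 0.243 with the number of pairs. The fall of distance with expression is present at each level of CpG, with rho -0.193 in the lowest tercile, -0.183 in the middle and -0.213 in the highest. Hubs are most frequent among genes with a CpG-rich bait and no expression: of 287 genes under 0.1 RPKM in the highest tercile, 33 (11.5%) are hubs, and the median distance of the 287 is 224 kb. The same tercile has 6.73% hubs and a median of 219 kb at 0.1 to 1 RPKM, so long reach is shared by weakly expressed genes, and 3.54% and 119 kb at 50 RPKM and over. The 33 hubs include 5 Hox genes, 4 predicted genes with Gm symbols, 3 protocadherins, 3 homeobox genes outside the Hox clusters, 2 forkhead genes and 2 Rik clones, and others such as Cacna1i, Prss21 and Scnn1g are in no listed family. How frequent these families are among all 287 genes was not tested.

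Reference promoters of 6 genes give examples of this range. They were chosen after the values were seen, as silent and expressed genes with many and with few cis pairs, and run from 250 bases before to 50 after the RefSeq start in GRCm38.p6, 5′ to 3′ on the gene's strand, with CpG in capitals. Of 32851 RefSeq windows of this length, 94.6% hold a CpG, with a median of 7 (quartiles 3 and 20). Wnt1 (chr15:98789607-98789906, plus strand), a secreted signal of the embryonic brain, is listed at 0 RPKM, has 38 cis pairs and a window with 26 CpG. Krt73 (chr15:101802311-101802610, minus strand), a hair follicle keratin, is also listed at 0 RPKM and has 73 pairs and 4 CpG. 1810006K21Rik, now Tmem258 (chr19:10203952-10204251, plus strand), a membrane protein gene, has 82.2 RPKM, 72 pairs and 14 CpG. Nanog (chr6:122707239-122707538, plus strand), a pluripotency homeobox factor, has 418 RPKM, 20 pairs and 4 CpG. Rps7 (chr12:28635904-28636203, minus strand), a ribosomal protein of the small subunit, has 1842 RPKM, 1 pair and 21 CpG. Vmn1r11 (chr6:57137103-57137402, plus strand), a pheromone receptor, is listed at 0 RPKM with 1 pair and no CpG. As chosen examples, these 6 windows do not show how CpG goes with the number of pairs.
Wnt1 promoter: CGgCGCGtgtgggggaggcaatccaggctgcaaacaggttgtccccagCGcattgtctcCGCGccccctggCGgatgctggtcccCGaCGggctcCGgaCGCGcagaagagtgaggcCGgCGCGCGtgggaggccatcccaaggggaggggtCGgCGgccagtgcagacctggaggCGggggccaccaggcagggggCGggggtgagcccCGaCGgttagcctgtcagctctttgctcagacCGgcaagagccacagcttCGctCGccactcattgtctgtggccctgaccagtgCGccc
Krt73 promoter: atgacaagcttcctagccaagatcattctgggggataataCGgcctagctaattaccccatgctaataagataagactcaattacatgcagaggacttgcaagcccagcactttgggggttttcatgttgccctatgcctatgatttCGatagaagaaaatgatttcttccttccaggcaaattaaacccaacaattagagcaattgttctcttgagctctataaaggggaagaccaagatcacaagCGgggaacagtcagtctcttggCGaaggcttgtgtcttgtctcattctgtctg
1810006K21Rik promoter: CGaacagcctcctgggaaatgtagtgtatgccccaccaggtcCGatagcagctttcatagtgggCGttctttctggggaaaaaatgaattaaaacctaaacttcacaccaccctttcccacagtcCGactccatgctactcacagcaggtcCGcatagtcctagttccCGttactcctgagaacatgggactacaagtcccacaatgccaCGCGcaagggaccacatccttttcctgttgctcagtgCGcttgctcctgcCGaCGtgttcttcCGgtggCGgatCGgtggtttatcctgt
Nanog promoter: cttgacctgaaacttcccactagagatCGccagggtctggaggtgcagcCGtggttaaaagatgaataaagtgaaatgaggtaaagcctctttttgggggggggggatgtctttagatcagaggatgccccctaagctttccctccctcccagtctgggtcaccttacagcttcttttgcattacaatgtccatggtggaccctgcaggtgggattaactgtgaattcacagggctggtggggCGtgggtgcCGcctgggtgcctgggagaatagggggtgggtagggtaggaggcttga
Rps7 promoter: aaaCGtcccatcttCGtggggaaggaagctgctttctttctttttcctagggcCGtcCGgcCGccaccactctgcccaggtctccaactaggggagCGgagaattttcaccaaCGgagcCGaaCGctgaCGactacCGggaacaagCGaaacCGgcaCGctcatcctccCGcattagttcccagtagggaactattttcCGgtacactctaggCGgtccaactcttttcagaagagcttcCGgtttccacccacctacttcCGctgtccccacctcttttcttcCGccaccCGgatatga
Vmn1r11 promoter: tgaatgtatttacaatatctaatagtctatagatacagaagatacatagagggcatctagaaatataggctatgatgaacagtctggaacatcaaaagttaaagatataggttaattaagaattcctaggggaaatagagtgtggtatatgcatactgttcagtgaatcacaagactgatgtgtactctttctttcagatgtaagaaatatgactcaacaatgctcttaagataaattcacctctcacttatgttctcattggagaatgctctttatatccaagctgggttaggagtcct

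Gene families were taken by symbol, and 68 of 73 had at least 8 joined genes. By the median number of cis pairs per gene, the 5 most connected are keratins (22), Hox cluster genes (21), keratin-associated proteins (18), protocadherins (16.5) and Wnt ligands (15), against 4 over all joined genes. The median of each of the 5 is under 1 RPKM, though 7 of 44 keratins, Krt8 among them, and 6 of 19 Wnt ligands lie at 1 RPKM or more. Across the 68 families, rho between the median number and the median RPKM is -0.195, and between the median distance and the median RPKM -0.286.

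Keratins, the intermediate filaments of epithelia, have 44 joined genes on 2 chromosomes with a median of 0.0413 RPKM and a median distance of 320.1 kb, and 20 of the 44 are hubs. They range from Krt16 with 3 pairs to Krt23 with 75, of which 46 have a baited partner. Keratin-associated proteins, which cross-link hair keratins, have the largest baited share of the 5 families, 73.4% (69.8% to 76.8%), and a median of 63 baited fragments within 500 kb. Their extremes are Krtap5-5 with 1 pair and Krtap29-1 with 57. Hox genes, which pattern the body axis, differ from both in reach and reads: their median distance is 74.8 kb and their median reads 21.5, and 36.4% (33.1% to 39.9%) of partners are baited. Of 31 Hox genes, 15 are hubs and 1 lies at 1 RPKM or more. Hoxc5 has 68 pairs and Hoxd12 has 4.

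Protocadherins, cell-surface adhesion proteins of neurons, have 26 joined genes with a median of 0.0192 RPKM and a median distance of 180.4 kb. Pcdhb1, in a gene cluster, has 37 pairs, and Pcdh20, outside the clusters, has 1. Wnt ligands lie on 10 chromosomes. Their 19 genes have a median of 14 baited fragments within 500 kb, against 49.5 for keratins and 29 for Hox genes. Wnt1 has 38 pairs, its highest score joining it to the fragment of Wnt10b at 9.55 kb with 193 reads, and Wnt2 has 1 pair.

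The 5 least connected families are laminins (median 3), cadherins with Cdh symbols (3), taste receptors (3), vomeronasal receptors (2.5) and cohesin with its regulators and CTCF (2). Several other families also have a median of 3, olfactory receptors, Sox factors and Mediator subunits among them, and the order at 3 was set by the mean. The low end holds silent and expressed families alike. The 9 genes of cohesin, its regulators and CTCF, which form and anchor chromatin loops, have a median of 79.1 RPKM and at most 5 pairs, those of Ctcf, down to 1 for Esco1. The 52 vomeronasal and 21 taste receptor genes have a median listed at 0 RPKM. Vmn1r1 with 28 pairs and Tas1r3 with 7 are their most connected members, and Vmn1r11 and Tas2r104 have 1 each. Among laminins, matrix proteins of basement membranes, Lamb2 has 16 pairs and Lama1 has 1, both at about equal expression (11.4 and 11.2 RPKM). Among these cadherins, Cdh16 (0.160 RPKM) has 21 pairs and Cdh2 (3.10 RPKM) has 1.

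Some families of highly expressed genes, picked after their values were seen, sit between these ends. Other expressed families do not: Mediator subunits (21.6 RPKM) and ubiquitin-specific proteases (19.8 RPKM) have a median of 3 pairs. Cytosolic ribosomal proteins have the highest expression, a median of 788 RPKM over 49 genes, with a median of 5 pairs, at most 15, at 76.7 kb. Genes of cytosolic tRNA synthetases (147 RPKM) and RNA polymerase II subunits (101 RPKM) have a median of 9 pairs each, the latter with 75.3% (64.4% to 83.8%) baited partners over 9 genes, and proteasome subunits with their assembly factors (155 RPKM) have 7. The 550 olfactory receptor genes have a median of 3 pairs, 65.6% (63.8% to 67.3%) of them with a baited partner. A set of 11 Wnt receptor genes (8 Frizzled genes with Ror1, Ror2 and Lrp5) has a median of 4 pairs, and 17.2% (9.88% to 28.2%) of their partners are baited, the smallest share of all 68 families.

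**Figure D4:**
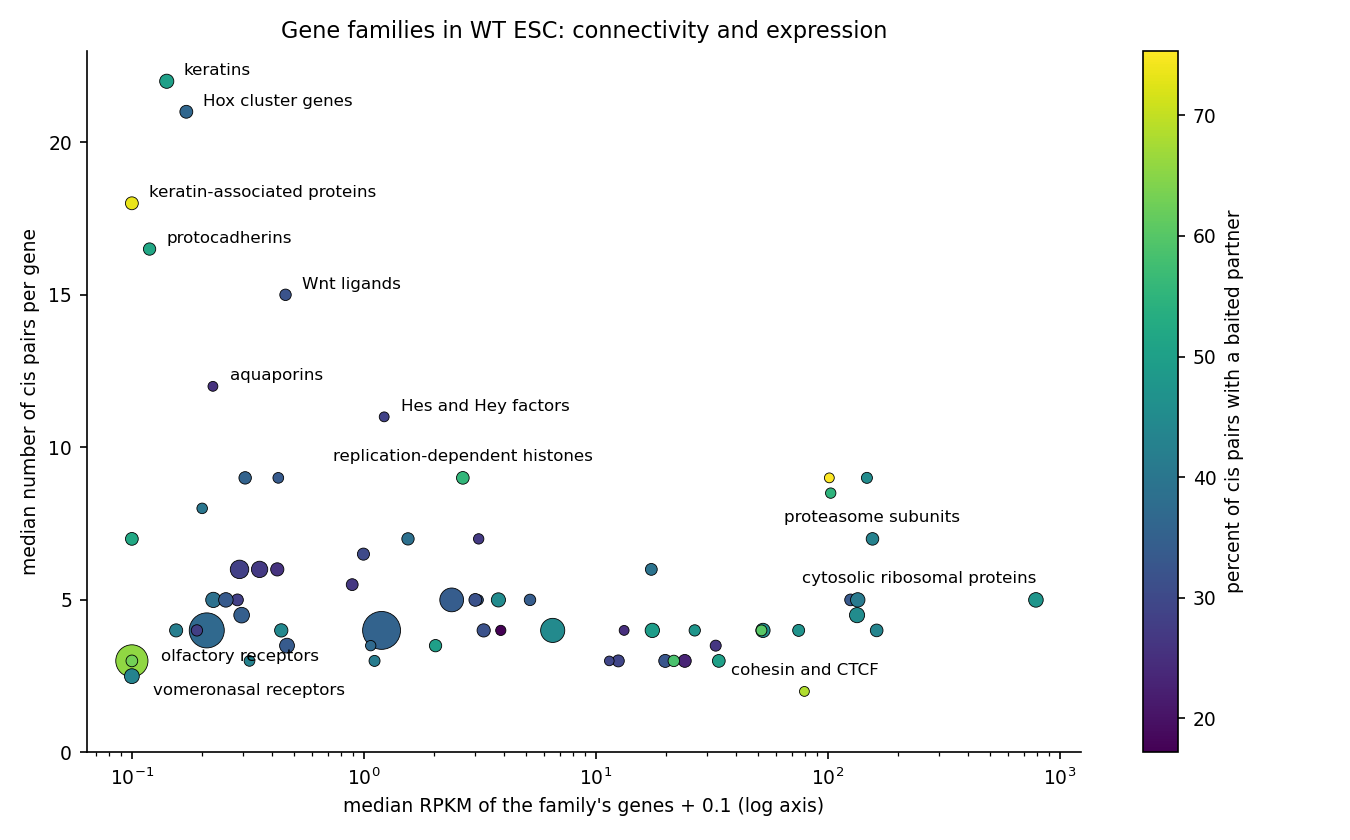
Median number of cis pairs per gene against median RPKM + 0.1 (log axis) for 68 gene families, with point size rising with the number of joined genes and colour giving the percent of cis pairs with a baited partner. Keratins, Hox genes, keratin-associated proteins, protocadherins and Wnt ligands, all at low RPKM, stand above the rest, and the cohesin set with CTCF lies lowest at a median of 2.

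The single most connected promoters are spread over the range of expression below 100 RPKM. Dmkn, a secreted protein of the epidermis, has 105 cis pairs at 0.557 RPKM. Itgb1bp1, an integrin-binding adaptor, has 101 at 14.1 RPKM, and only 5 of its partners are baited, with 4 baited fragments within 500 kb. Ffar3, a receptor for short-chain fatty acids listed at 0 RPKM, has 92. Of these, Dmkn and Ffar3 lie near each other on chromosome 7 with 4930479M11Rik (85 pairs) and Arhgap33 (72 pairs), in a stretch where 35, 28, 28 and 29 of their partners are themselves baited. The other genes among the 10 most connected are 0610010O12Rik (83 pairs, 12.6 RPKM), Krt23 (75), Krt73 (73), 1810006K21Rik (72, at 82.2 RPKM) and Kcnn3, a potassium channel gene (72, at 0.409 RPKM).

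The most connected silent genes come largely from 2 clusters on chromosome 15. Of the 10 genes under 0.1 RPKM with the most cis pairs, 7 are there: Krt73 (73 pairs), Krt78 (69), Krt75 (68) and Krt86 (63) of the keratin cluster, and Hoxc5 (68), Hoxc11 (67) and the predicted gene Gm17649 (65) at the Hoxc cluster. The highest scores of these keratin genes join them to other keratin genes, Krt78 with Krt75 at 376 kb (25 reads), Krt73 with Krt84 at 264 kb (19 reads) and Krt86 with Krt76 at 421 kb (16 reads). Hoxc11 has its highest score with Hoxc8 at 37.8 kb (92 reads), and Hoxc5 with an unbaited fragment between genes at 163 kb (59 reads). The strongest pairs of these keratins thus stay within their gene cluster, at 264 to 421 kb. The other silent genes of the 10 are Ffar3, A730018C14Rik (69 pairs) and Krt35 (63).

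The most transcribed promoters have few contacts or a moderate number. Ptma, a chromatin-associated acidic protein, has the highest level of the joined genes, 4845 RPKM, with 1 cis pair of 37.0 kb. Hsp90ab1, a cytosolic chaperone, has 4599.8 RPKM and 14 pairs at a median of 54.0 kb, 11 of them with baited partners. Rpl32 (4516 RPKM) has 10 pairs, Pkm2 (4274 RPKM) has 2, Dppa5a (4144 RPKM) 2, Rps26 (3512 RPKM) 7, Eef2 (3401 RPKM) 23 and Rps15 (2799 RPKM) 10. Gm10076, a predicted gene with 4709 RPKM and 2 pairs, is uncertain, since how reads of near-identical copies were counted is not stated. Ribosomal protein genes can also share reads with their pseudogenes. None of these genes is a hub.

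High expression also occurs with a lone listed contact. Besides Ptma, the 10 most expressed genes with 1 cis pair include the ribosomal protein genes Rps7, Rps24, Rps4x, Rps29 and Rpl37 (1077 to 1842 RPKM) and the glycolytic genes Pgk1 (1749 RPKM) and Ldha (1426 RPKM). In 9 of the 10 the partner is another promoter, Ptma being the exception, against 56.6% (51.1% to 62.0%) of all 309 genes with 1 pair at 50 RPKM or more. The partner of Pgk1 is the fragment of Cox7b at 168 kb (324 RPKM), and that of Rps29 is Rpl36al at 27.4 kb (321 RPKM). Gm9000 (1199 RPKM), also in this group, is uncertain for the reason given for Gm10076. The value of Lars2 (2397 RPKM), in this group too, is also taken as uncertain, since how reads were counted is not stated. Without any WT ESC cis pair are Rplp1 (5099 RPKM), Npm1 (2459 RPKM), Rps23 (1622 RPKM), Cfl1 (1529 RPKM), Rps3a (1498 RPKM), Ybx1 (1141 RPKM), Eno1 (1096 RPKM) and Trh (850.5 RPKM), along with the uncertain Gm5506 (1523 RPKM), which can share reads with Eno1. Each of these genes has 1 to 3 cis pairs in at least 1 of the other lists.

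Distance varied widely among well-connected genes. Of genes with 10 or more cis pairs, the longest median distances belong to the histone gene Hist1h4i (1497 kb) and the zinc finger gene Zfp184 (1459 kb), followed by Adamts1 (1438 kb), Mnx1 (1155 kb) and Bcl6 (1064 kb). Hist1h4i has its highest score with another histone gene fragment, Hist1h2ae, at 1527 kb (9 reads), and Zfp184, on the same chromosome, with Abt1 at 1479 kb (9 reads). Mnx1, a motor neuron homeobox gene, has its highest score with Shh, a signalling gene listed at 0 RPKM, at 1009.7 kb (27 reads). The shortest medians are those of Hmgn1 (9.39 kb), Acy3 (14.3 kb), Slc20a1 (15.1 kb), Zscan22 (15.3 kb) and Myo5c (17.0 kb). Zfp184 is the most expressed of the long-distance genes, at 7.81 RPKM, while Hmgn1, a nucleosome-binding protein, has 323 RPKM and Slc20a1, a phosphate transporter, 81.2 RPKM.

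Some genes have contacts with other promoters only. Among genes with 10 or more pairs, Gm11570 (43 pairs), Gm14185 (29) and Gm14180 (26), predicted genes in the keratin-associated cluster of chromosome 11, and the olfactory receptor Olfr633 (26) are the 4 with the most pairs that have baited partners only, and all 4 are listed at 0 RPKM. Acap1, among the next (21 pairs, 7.39 RPKM), is expressed and lies outside the keratin and receptor clusters. The single pairs with the most reads join a bait to a fragment that is not baited within 10 kb, led by Pdia5 (572 reads at 5.90 kb, score 8.46) and Slc39a3 (384 reads at 3.72 kb). The highest score of a cis pair, 163, joins Olfr206 to Olfr209 at 12.1 kb with 289 reads. The next, 115, joins the bait of 1810030J14Rik to an unbaited fragment with an exon of Mptx2 at 1053 kb with 47 reads. Of the 5 highest scores of cis pairs, 3 start at olfactory receptor genes and 2 at the bait of 1810030J14Rik. These 4 baits are all listed at 0 RPKM.

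Pluripotency genes were highly expressed and have few listed cis pairs. The 25 joined genes have a median of 2 cis pairs at 187 kb, against 4 pairs at 133 kb over all joined genes. They also have few baited fragments nearby, a median of 9 within 500 kb, and all joined genes with at most 11 have a median of 3 pairs at 200.1 kb, close to these values. Nanog has the most, 20 pairs at a median of 65.1 kb, 2 of them with a baited partner. Esrrb, an orphan nuclear receptor of the naive state, has 13 at 237 kb (210.4 RPKM), and Klf2, a Kruppel-like factor, 10 at 27.5 kb (302 RPKM). Lefty2 and Lefty1, Nodal inhibitors that lie side by side, have 9 and 6 pairs. Tbx3 has 9 pairs at a median of 762 kb, with the lowest expression of the list (14.9 RPKM), and its highest score joins it to the silent developmental gene Lhx5 at 762 kb with 40 reads.

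Other pluripotency genes have few listed contacts at high expression. Pou5f1 (1159 RPKM) has 5 pairs, 4 of them with promoters, Utf1 (445 RPKM) has 4, 3 of them with promoters, and Sox2 (397 RPKM) has 3, none with a promoter. Tdgf1, a Nodal co-receptor (1079 RPKM), Dppa5a, Dppa2 (100.1 RPKM), Sall4 (89.8 RPKM), Lin28a (231 RPKM), Nr0b1 (126 RPKM) and Fbxo15 (257 RPKM) have 2 each. Dppa5a has its highest score with Ooep, a maternal-effect gene at 9.65 kb that is itself expressed (72.4 RPKM). Klf4 (93.0 RPKM), Klf5 (88.7 RPKM), Dppa3 (74.1 RPKM), Dppa4 (167 RPKM), Fgf4 (151 RPKM) and Nr5a2 (26.4 RPKM) have 1 pair each, that of Klf4 at 1144 kb, and contacts with a score under 5 are not in the list. Zfp281 has 4 pairs with a median of 12.2 kb, and Tcl1 and Tcfcp2l1 have 3 each. Dppa2 and Dppa4, which are neighbours, both have their highest score with a fragment in an intron of Morc1, at 295 and 321 kb.

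**Figure D5:**
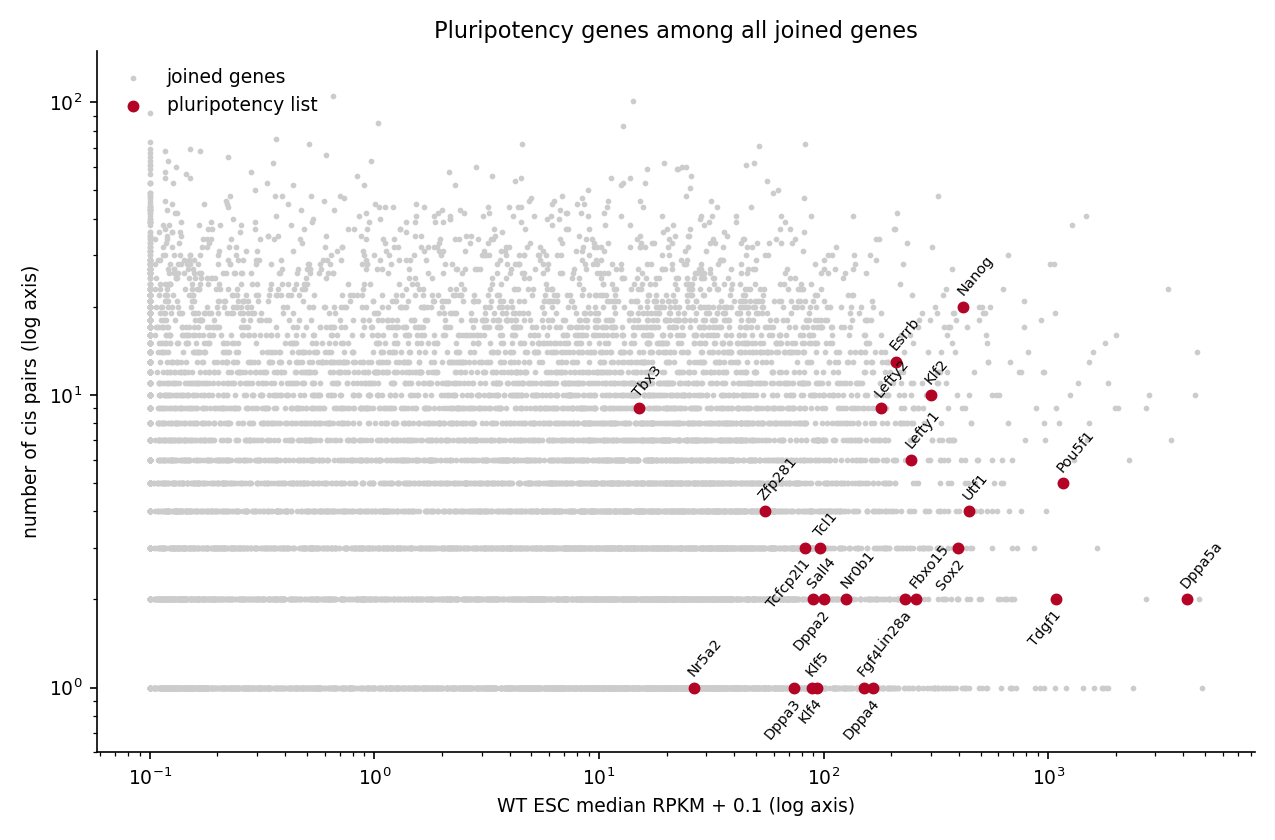
Number of cis pairs (log axis) against WT ESC median RPKM + 0.1 (log axis) for all 13778 joined genes (grey) and 25 pluripotency genes (red, named). Nanog has the most pairs of the list, 20, and the list lies at the high end of expression across the range of 1 to 20 pairs.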

How the data were processed

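Promoter capture Hi-C of WT ESCs (5 lanes) and RNA-seq of WT ESCs (3 samples) were used as the authors deposited them. By the study's methods, contacts were found with CHiCAGO from 2 biological replicates that the authors normalised and combined. The reads of a pair are treated as a score rather than a raw count, because the authors normalised and combined replicates, and the deposited list does not state what its whole numbers are. The CHiCAGO score is the other deposited value of a pair, and none is under 5. For the deposited data, the submitters' notes say that the authors used Bowtie 1.1.0 for the contacts, and Trim Galore, TopHat and DESeq2 for the RNA. RPKM is the authors' median per group, without SD or n, and how reads were counted is not given in the sources used here. The table also holds 4 columns of the authors' own comparisons (fold changes and p-values), which were not used.

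Entries were reduced to different fragment pairs. Where both ends list the same pair (7324 pairs) it enters a single time, with the larger value where the reads differ (29 pairs), and belongs to the genes of each baited end. Bait names were split at bars and commas, and the transcript suffix was removed. Of the joined genes, 13729 have 1 bait fragment. All 96056 fragments of the 3 lists start and end on HindIII sites of GRCm38. Depth of the libraries is unknown: listed cis pairs hold 2173287 reads, which cover called pairs only. RPKM is split at 0.1, 1, 10 and 50. No test was run, since the deposited values are combined over replicates, and shares have Wilson 95% intervals. Calculations were tested on simulated data, with Python 3.11.15, numpy 2.4.6, scipy 1.17.1 and matplotlib 3.10.9.

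Promoter windows from RefSeq (GRCm38.p6) matched 9381 joined genes by symbol and 1104 by synonym, and lie on the bait fragment of 9781 (71.0%). As this is under 80%, the planned comparison of windows with connectivity is void, and the bait fragment was used in its place, a choice made after seeing the data.

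Members and lists were chosen with earlier results of these data known. Genes named are the 10 with the most cis pairs, with the highest RPKM, under 0.1 RPKM with the most pairs, with the highest RPKM among genes with 1 pair, and with the highest RPKM among genes named in a list without a WT ESC pair, some of which are not reported here. Also named are the 5 with the longest and shortest median distance and with the largest baited share (10 or more pairs each). Further named are the 5 cis pairs with the most reads and with the highest score. All pluripotency genes, and the extremes of the 5 highest and 5 lowest families, are named as well. Markers of other cell types are named as the most abundant of their list, and others as partners of these genes. Further families, markers and promoters were picked after their values were seen. Alternatives were the score, the unit, the direction, distance and partner type of pairs, low expression, the pseudocount, genes without pairs and the sex chromosomes.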

Additional observations from a re-analysis of the deposited data

Results flagged for a closer look

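The WT ESC list also holds 786 pairs that join different chromosomes, data outside the comparisons of cis pairs, 0.782% of all listed pairs. Their median is 3 reads, and 31 of them join baited fragments. A total of 180 involve 3 fragments, those of Gm16040 (89 pairs), Gm7235 (47 pairs) and Mad2l1 (44 pairs). The highest score, 825.5 with 99 reads, joins the fragment of Gm11399 on chromosome 11, which overlaps an exon of Sfi1, to chromosome 5. The 315 joined genes involved have a median of 1.28 RPKM.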

How the results depend on the processing

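Values here are rho with RPKM unless stated. For the number of pairs (0.0102), the sign turned with a score of at least 7 (-0.0136), genes at 1 RPKM or more (-0.0170), pairs over 20 kb (-0.00298), unbaited partners (-0.0184) and, chosen after seeing the data, without sensory receptors (-0.0128). It was 0.0177 for pairs listed from the gene's own end and 0.0207 with all genes without a pair added, chosen after seeing the data. Distance (-0.156) kept its direction throughout, at -0.0797 from 1 RPKM, -0.155 on autosomes, -0.152 without receptors and -0.137 for the longest pair. Reads (0.0856) turned for pairs of 50 to 200 kb (-0.0639), and were 0.0190 from 1 RPKM, 0.0811 from the gene's own end and 0.0602 without receptors. The baited share (0.0188) turned at a score of at least 7 (-0.00971), and was 0.0343 from 1 RPKM, 0.0317 from the gene's own end and 0.0778 without receptors. The cause was not tested. The log2 difference between hubs and genes with 1 to 2 pairs (-0.57) was -0.44 with a pseudocount of 1, -0.41 from 1 RPKM and -1.04 at a score of at least 7. Of the 5 lowest families, 3 stayed with genes of 0 pairs added and 2 at a score of at least 7, where laminins and the cohesin set had too few genes to be ranked, and of the 5 highest, 5 and 4. Over 100 kb, 77.7% of the partners of fragments at 50 RPKM and over, and 29.3% of those of silent ones, lie at 1 RPKM or more. Apart from values of single expression classes, the remaining values of these comparisons stayed the same by the measures used, which count 4 of 5 families as unchanged. In single classes, baited shares, distances, the median number of pairs of silent genes and the listed share of far silent pairs moved, as given with them. The median distance of genes under 0.1 RPKM (169 kb) also moved, to 168.4 kb on autosomes and 166.6 kb without receptors. The planned comparison of promoter windows with connectivity is void. No paired analysis was possible because the list and the RPKM column are combined over replicates and no result comes from a test. What depth limits is unknown, since library depth is not given: pairs under a score of 5 do not appear, so a gene with few pairs may have contacts too weak to be listed, and reads of far pairs are few.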

Other observations

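Many hubs lie near other hubs, in stretches dense in promoters: hubs have a median of 25 baited fragments within 500 kb, against 11 for genes with 1 to 2 pairs. How often other genes of such stretches would form runs was not tested. With hubs joined into a run wherever the baits of successive hubs are at most 500 kb apart, other genes between them allowed, the 682 hubs form 265 runs, of which 141 are lone genes, and 34 runs of 5 or more hold 304 of them (44.6%). The largest run has 30 genes over 1223 kb of chromosome 11, from Gjd3 through the keratin and keratin-associated genes to Krt9, and 28 of them are under 0.1 RPKM. The run of 15 genes at the keratins of chromosome 15 has 14 under 0.1 RPKM. Further runs are silent or low too: none of the 8 hubs at the Hoxc cluster, the 6 at the Hoxb cluster or the 8 at the protocadherins of chromosome 18 lies at 1 RPKM or more. Others hold expressed genes. Of 20 hubs in 862 kb of chromosome 7 around Dmkn, 11 lie at 1 RPKM or more and 5 under 0.1. On chromosome 19, a run of 14 hubs around the fatty acid desaturases Fads2 and Fads3 has 11 at 1 RPKM or more, and on chromosome 14 a run of 13 has 10. On chromosome 17, 13 hubs in 377 kb between Cfb and Nfkbil1, in the class III region of the major histocompatibility complex, have none under 0.1 RPKM and a median of 2.57. These runs were picked after their values were seen and not by size alone. Runs left out that are larger than those at the Hox and protocadherin clusters include 14 hubs on chromosome 11 (8 at 1 RPKM or more) and 12 on chromosome 2 (7). Others are runs of 12 on chromosome 7 (7 and 10) and of 10 on chromosome 17 (5).

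Chromosomes differ in connectivity. The 284 joined genes of the X chromosome have a median of 2 cis pairs and 9 reads, and 1 of them (0.352%) is a hub, while their median expression is 6.14 RPKM. Every autosome has a median of 3 to 6 pairs. The largest shares of hubs are on chromosomes 15 (8.95%), 7 (8.62%), 17 (8.58%) and 11 (7.09%), which have medians of 19 to 24 baited fragments within 500 kb. Among other chromosomes, 14 has 6.69% hubs with 12 baits, as on the X, and 12 has 6.49% with 9, while chromosome 2 has 3.52% with 17. The relation of hubs with bait density over all chromosomes was not tested. The labels do not give the sex of the cells, and the copy number of the X chromosome was not tested. Distance falls with expression on each chromosome, with rho from -0.0708 on chromosome 1 to -0.234 on the X.

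Very long cis pairs are rare and thin. Of the cis pairs, 690 are longer than 1 Mb with a median of 5 reads, and 48 are longer than 10 Mb with a median of 3, the longest spanning 168101 kb.

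Markers of other lineages can have more contacts than pluripotency genes. The 9 joined trophectoderm markers have a median of 11 cis pairs and the 8 mesoderm markers 12.5, against 2 for the pluripotency list, 3.5 each for primed epiblast and primitive endoderm markers, 7 for neuroectoderm and 4 for fibroblast markers. Cdx2, a trophectoderm regulator at 0.466 RPKM, has 26 pairs, Tcfap2c has 33 at 32.8 RPKM, and the mesoderm regulators Mesp1 and Mixl1 have 14 and 13. Mixl1 has a median distance of 67.6 kb and Gsc, with 13 pairs, has 391 kb. Pax3, under 0.1 RPKM, has 17 pairs. These lists are small, and Eomes, T and Hand1 are in more than 1 of them.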
